A study of Mus musculus with 9 samples.

Results

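The 60 genes described here encode proteins that carry a cell through mitosis: the kinases and cyclins of mitotic entry, the spindle checkpoint, the kinetochore, the spindle and its motors, the machinery of cytokinesis and the proteins that shape mitotic chromosomes. The genes were listed by name as mitosis, spindle and kinetochore genes, and the rule applies no threshold to a measured value. The list was chosen with earlier results of these data known. All 60 were among the 20418 gene symbols measured, and all 60 were among the 13479 genes with enough reads to be tested. The RNA was sequenced from splenic CD8+ T cells of female C57BL/6 mice aged 6 weeks. The cells were left untreated or were given one of a pair of T cell growth factors, interleukin-2 or interleukin-15 (IL-2 and IL-15), at 1 or 500 nM and for 4 or 24 h. Each of the 9 conditions had a single library, made from pooled RNA of 3 samples, and thus no replicate. The labels give no genetic change in these mice and name no cell sorting.

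Most resting T cells sit outside the cell cycle and carry little mRNA for mitotic proteins. Cells that re-enter the cycle first copy their DNA and then switch on the genes of G2 and M phase together. The B-MYB and FOXM1 complexes do so at promoters that often hold a CHR element and CCAAT boxes. IL-2 and IL-15 share the IL-2 receptor beta and common gamma chains and both drive CD8+ T cells to divide. The series asks how the 2 cytokines come to differ in their effects. In pooled RNA, fewer cells of a kind and less RNA per cell cannot be told apart, and no level here separates them.

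Library totals ran from 27158143 to 48799962 counts, and the 10 highest genes took between 8.20% and 15.2% of them. Levels are given as CPM, each count relative to its library total after trimmed-mean scaling. Changes are log2 values from the quasi-likelihood test of edgeR, and p-values were adjusted over all 13479 genes by Benjamini-Hochberg. The test gives no SE. The value after ± is an approximate SE, derived as the change divided by the square root of the test's F statistic. A gene is called where its adjusted p was under 0.05. The tests take their spread from the factorial layout of the 8 treated libraries, so a p-value reflects no more than how these libraries scatter, which may be technical. The 11 T cell identity genes tested summed to between 4232 and 7023 CPM in all 9 libraries. RNA of other splenic cell types was detected as well and moved with the treatments. The 13 myeloid markers tested summed to 2165 CPM untreated, 170 to 325 CPM in the 4 h libraries, 755 and 981 CPM at 1 nM and 24 h, and 38.7 and 35.3 CPM at 500 nM and 24 h. The 12 B cell markers summed to 788 CPM untreated, 413 to 843 CPM in the 6 libraries other than those 3, and 257 and 310 CPM at 500 nM and 24 h. The 9 erythroid markers tested are 7 distinct measurements, since the copies Hba-a1 and Hba-a2, and Hbb-b1 and Hbb-b2, carry identical counts in every library. Counted once, they summed to 105 CPM untreated and to 6.06 and 4.39 CPM at 500 nM and 24 h. Of these 3 lists Itgam, Hmox1, Pax5, Slc4a1 and Ermap were at 0 counts in both 500 nM, 24 h libraries, but none exceeded 2.87 CPM in any library, and each was at 0 in at least 1 other. The near-identical Lyz1 and Lyz2 of the myeloid list may share reads. What share these cells had in the mitotic mRNA was not tested.

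High dose for a long time was where mitotic mRNA stood out. Summed over the 60 genes, the level was 583 CPM in untreated cells. At 4 h it was 656 CPM with IL-2 and 672 CPM with IL-15 at 1 nM, and 454 and 446 CPM at 500 nM. At 24 h and 1 nM it was 1093 CPM with IL-2 and 636 CPM with IL-15, and at 24 h and 500 nM it was 3645 and 3704 CPM. At 4 h, the excess over untreated at 1 nM and the gap between doses lay mostly in Cdc25b and Cenpa. With IL-2 and IL-15, Cdc25b measured 111 and 130 CPM at 1 nM and 4 h, and 19.3 and 20.5 CPM at 500 nM. Cenpa measured 119 and 156 CPM, and 50.7 and 44.1 CPM. The median log2 change with dose at 4 h was -0.04 over the 60 genes. Both 500 nM, 24 h libraries lay above all 7 other libraries for 57 of the 60 genes, as they did for 18.6% of all genes tested. The 3 exceptions were Cdc25b, Pttg1 and Cenpa.

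**Figure D1:**
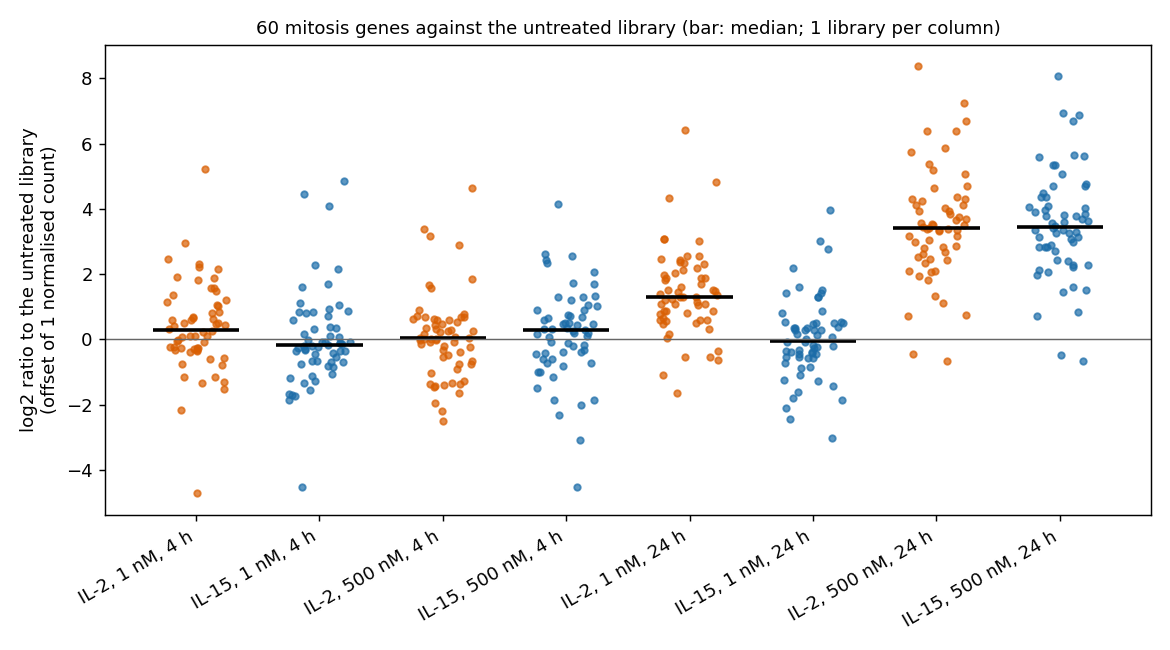
Log2 ratio of each treated library to the untreated library for the 60 genes (vertical axis, offset of 1 normalised count) by library (horizontal axis). Each point is 1 gene and each bar the median of the 60: it is 3.43 and 3.46 in the 500 nM, 24 h libraries, 1.32 with IL-2 at 1 nM and 24 h and -0.03 with IL-15 at 1 nM and 24 h.

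The first comparison asked how mRNA changed between 4 and 24 h at 500 nM. Of the 60 genes 56 rose and 1 fell, against 13.3% and 12.9% of all genes tested. The median change was 3.48, with -0.04 over all genes. At 1 nM the same comparison called 2 of 60 genes, both rising (Cdca5 and Nuf2), while 1.51% of all genes rose and 1.38% fell, and the median was 0.55. It averages the cytokines, and at 1 nM the summed level went from 656 to 1093 CPM with IL-2 and from 672 to 636 CPM with IL-15. The model holds no cytokine by time term, so that split counts as spread. Leaving out IL-15 at 1 nM and 24 h gave 18 calls. The difference between the time courses of the 2 doses was tested by the dose by time interaction. It passed for 36 of the 60 genes, all with the higher change at 500 nM, against 4.06% of all genes in that direction and 4.76% in the other. Leaving out IL-2 at 500 nM and 4 h brought that count to 23, and leaving out IL-15 at 1 nM and 4 h, or at 500 nM and 24 h, brought it to 20.

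**Figure D2:**
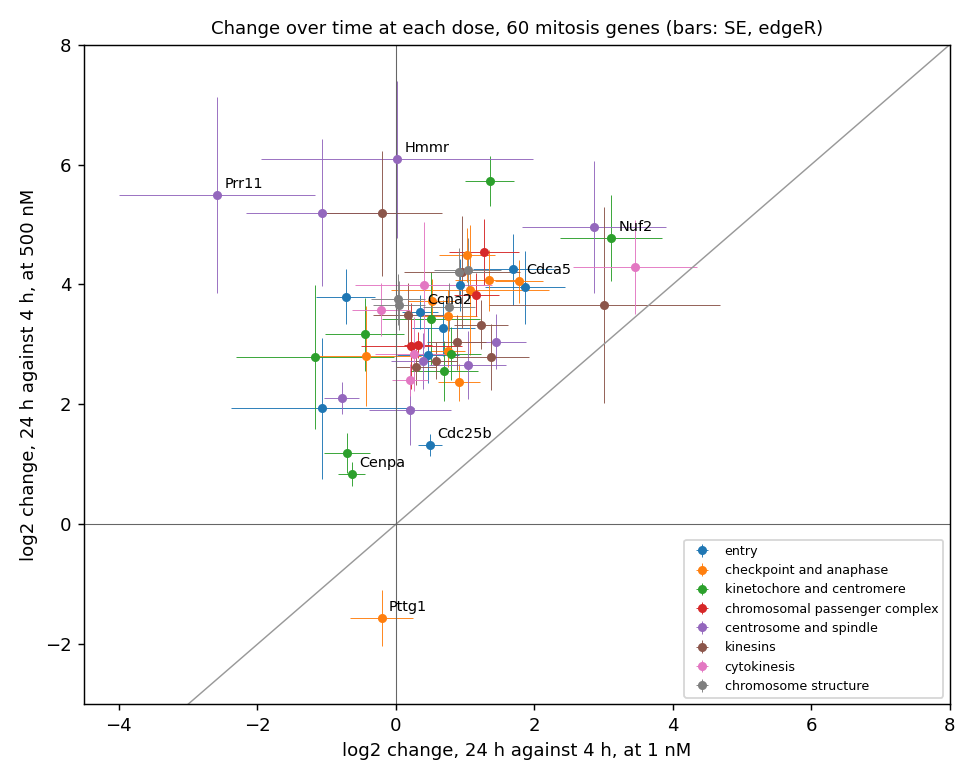
Log2 change from 4 to 24 h at 1 nM (horizontal axis) and at 500 nM (vertical axis) for the 60 genes, coloured by role, with bars for the SE derived from the edgeR test and a diagonal of equal change. All but Pttg1 lie above 0 on the vertical axis, and the median is 0.55 at 1 nM and 3.48 at 500 nM.

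Entry into mitosis is driven by cyclin A and cyclin B with their kinase Cdk1, listed here under its older symbol Cdc2a. Of the 9 entry genes 8 rose over time at 500 nM, and the other, Cdc25c, a phosphatase that activates Cdk1, stood at 1.93 ± 1.18 (adjusted p = 0.271, edgeR). Ccna2, which encodes cyclin A2 (NM_009828, chromosome 3), measured 37.9 CPM untreated, 31.5 and 31.1 CPM at 1 nM and 4 h with IL-2 and IL-15, and 27.1 and 29.0 CPM at 500 nM and 4 h. At 24 h it measured 56.1 CPM with IL-2 and 26.1 CPM with IL-15 at 1 nM, and 339 and 320 CPM at 500 nM. The 2 high-dose, 24 h libraries thus stood apart from the 7 others, which lay between 26.1 and 56.1 CPM. Ccna2 rose by 3.55 ± 0.28 over time at 500 nM (adjusted p = 2.03e-05, edgeR) and was 0.35 ± 0.26 at 1 nM (adjusted p = 0.584). Cdc2a rose by 4.25 ± 0.59, Ccnf, which encodes a cyclin that marks proteins for degradation, by 3.99 ± 0.44, Ccnb1, which encodes cyclin B1, by 3.96 ± 0.61 and the kinase gene Melk by 3.80 ± 0.46.

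**Figure D3:**
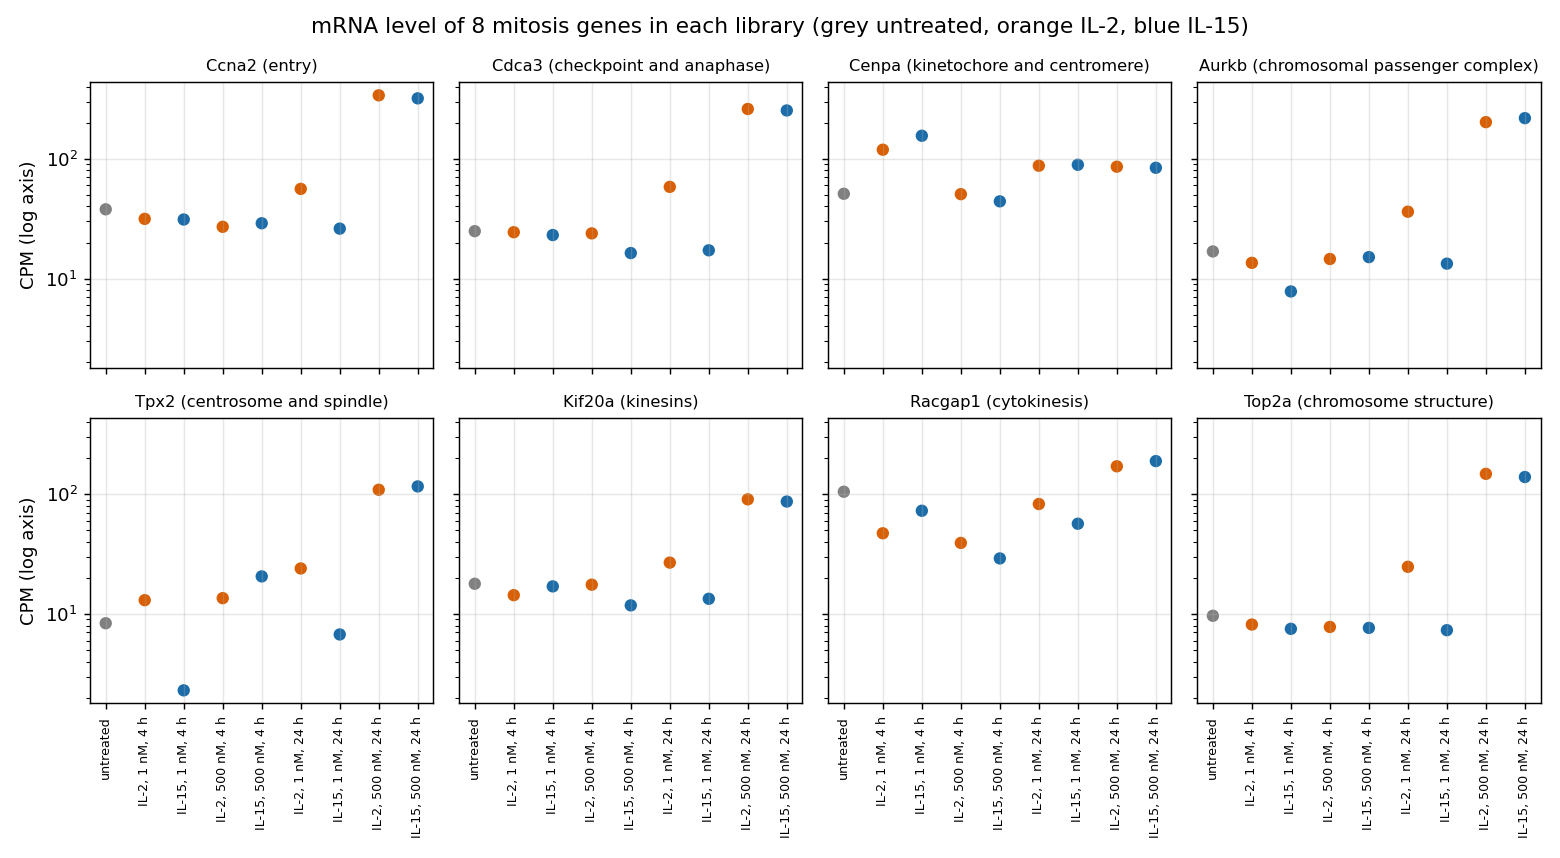
CPM (vertical axis, log scale) of the gene with the highest mean count in each of the 8 role groups, in the 9 libraries (horizontal axis, grey untreated, orange IL-2, blue IL-15). Ccna2, Cdca3, Aurkb, Tpx2, Kif20a, Racgap1 and Top2a are highest in the 2 libraries of 500 nM and 24 h, while Cenpa is highest at 1 nM and 4 h.

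Cdc25b encodes a phosphatase that starts the activation of Cdk1 at the centrosome, and it went against the rest of its group with dose. It measured 74.1 CPM untreated, 111 and 130 CPM at 1 nM and 4 h with IL-2 and IL-15, 158 and 183 CPM at 1 nM and 24 h, 19.3 and 20.5 CPM at 500 nM and 4 h, and 46.7 and 53.1 CPM at 500 nM and 24 h. All 4 libraries at 500 nM lay below the untreated library and all 4 at 1 nM lay above it. With dose it fell by 2.60 ± 0.19 at 4 h (adjusted p = 2.03e-05, edgeR) and by 1.77 ± 0.18 at 24 h (adjusted p = 3.78e-05), and both calls held under each of 16 alternatives. Over time at 500 nM it rose by 1.33 ± 0.18 from its low level at 4 h. Its dose by time interaction missed the threshold at 0.83 ± 0.25 (adjusted p = 0.0591, edgeR).

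The spindle checkpoint holds cells in mitosis until every chromosome is attached, and the anaphase-promoting complex with its activator Cdc20 then releases the separase Espl1 from its inhibitor securin, encoded by Pttg1. Of these 10 genes 9 rose over time at 500 nM. Cdca3, which encodes a trigger of mitotic entry that works with a ubiquitin ligase (NM_013538, chromosome 6), measured 24.9 CPM untreated and between 16.3 and 24.4 CPM in the 4 h libraries. At 24 h it measured 58.3 CPM with IL-2 and 17.2 CPM with IL-15 at 1 nM, and 261 and 253 CPM at 500 nM. It rose by 3.73 ± 0.37 over time at 500 nM (adjusted p = 4.04e-05, edgeR). Espl1 rose by 4.49 ± 0.46, the checkpoint kinase gene Bub1 by 4.07 ± 0.51, Cdca5, which encodes the cohesin protector sororin, by 4.05 ± 0.36, and the checkpoint kinase gene Ttk by 3.91 ± 1.08. Ttk had 0 counts in the untreated library, which allows up to 0.0969 CPM, and its level at 500 nM and 24 h was at least 96.2-fold higher with IL-2 and at least 78.4-fold higher with IL-15. Cdca5 was called at 1 nM as well, at 1.78 ± 0.34 (adjusted p = 0.0180, edgeR).

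Pttg1 (NM_013917, chromosome 11) was the single gene of the 60 that fell over time at 500 nM. It measured 4.65 CPM untreated, 12.1 and 6.04 CPM at 1 nM and 4 h with IL-2 and IL-15, 7.10 and 8.53 CPM at 1 nM and 24 h, 6.999 and 11.6 CPM at 500 nM and 4 h, and 3.37 and 2.94 CPM at 500 nM and 24 h. The 2 libraries of 500 nM and 24 h were its lowest, and it fell by 1.56 ± 0.47 over time at 500 nM (adjusted p = 0.0266, edgeR) and by 1.31 ± 0.46 with dose at 24 h (adjusted p = 0.0477). Espl1, the partner of its protein, measured 5.65 CPM untreated and 65.4 and 79.5 CPM at 500 nM and 24 h. The fall over time missed the threshold when IL-2 at 500 nM and 24 h, IL-15 at 500 nM and 4 h, or IL-15 at 500 nM and 24 h was left out, and reached an adjusted p of 0.265 at most. The fall with dose was lost under 6 of 16 alternatives, limma-voom among them.

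Kinetochores join centromeric chromatin to spindle microtubules, with the Ndc80 complex (Ndc80, Nuf2, Spc24 and Spc25) at the outer face and the histone variant Cenpa at the base. Of these 9 genes 8 rose over time at 500 nM, and Cenpk, an inner kinetochore gene, stood at 2.79 ± 1.20 (adjusted p = 0.112, edgeR). Spc24 rose by 5.73 ± 0.42, Nuf2 by 4.78 ± 0.71, the centromeric motor gene Cenpe by 3.43 ± 0.78 and Cenpf, which encodes a large kinetochore protein, by 3.17 ± 0.61. The 4 subunits of the Ndc80 complex did not start from the same level at 500 nM and 4 h: Ndc80 measured 8.12 and 7.97 CPM there with IL-2 and IL-15, while the other 3 lay between 0.636 and 3.41 CPM. At 500 nM and 24 h Ndc80 measured 17.5 and 19.2 CPM, and the other 3 between 19.7 and 50.97 CPM. Nuf2 was also called over time at 1 nM, at 3.11 ± 0.73 (adjusted p = 0.0438, edgeR). That call and the one of Cdca5 make up the whole count at 1 nM, which was 0 with limma-voom, 0 when either 4 h library of that dose was dropped and 18 when the IL-15 library of that dose and 24 h was dropped.

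Cenpa (NM_007681, chromosome 5), which marks the centromere, kept a pattern of its own. It measured 51.04 CPM untreated, 119 and 156 CPM at 1 nM and 4 h with IL-2 and IL-15, 87.5 and 89.1 CPM at 1 nM and 24 h, 50.7 and 44.1 CPM at 500 nM and 4 h, and 85.9 and 84.2 CPM at 500 nM and 24 h. The 1 nM, 4 h libraries were thus the highest, and the 4 libraries of 24 h lay within 84.2 to 89.1 CPM. Cenpa rose by 1.43 ± 0.25 in the 1 nM, 4 h libraries against untreated (adjusted p = 0.00732, edgeR) and fell by 1.53 ± 0.20 with dose at 4 h (adjusted p = 0.00047). With dose at 24 h it was -0.05 ± 0.19 (adjusted p = 0.877). Over time at 500 nM it rose by 0.84 ± 0.20 (adjusted p = 0.00746, edgeR), a call lost when IL-2 at 500 nM and 24 h, IL-15 at 500 nM and 4 h, or IL-15 at 500 nM and 24 h was dropped (adjusted p of 0.105 at most). Per exon length, in the deposited RPKM values, Cenpa was the highest of the 60 genes in 7 libraries, from 21.9 to 74.2 RPKM, and Cdca3 took its place in the 2 libraries of 500 nM and 24 h, with 123 and 122 RPKM.

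The chromosomal passenger complex, made of the kinase Aurkb with Incenp, Birc5 (survivin) and Cdca8 (borealin), corrects faulty attachments and later directs cytokinesis. All 4 genes rose over time at 500 nM. Aurkb (NM_011496, chromosome 11) measured 16.9 CPM untreated, 7.81 to 15.1 CPM in the 4 h libraries, 36.2 CPM with IL-2 and 13.3 CPM with IL-15 at 1 nM and 24 h, and 202 and 218 CPM at 500 nM and 24 h. It rose by 3.83 ± 0.35 over time at 500 nM (adjusted p = 2.75e-05, edgeR), beside Birc5 at 4.54 ± 0.55, Incenp at 2.995 ± 0.22 and Cdca8 at 2.98 ± 0.72. Incenp was present before treatment at 35.6 CPM, the highest of the 4, and fell by 0.87 ± 0.24 in the 500 nM, 4 h libraries against untreated (adjusted p = 0.0280, edgeR).

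Centrosomes and spindle assembly factors build the bipolar spindle, with Plk4 and Stil in centriole duplication, and Aurka with its activator Tpx2 in microtubule nucleation. All 9 genes of this group rose over time at 500 nM. The largest changes belonged to genes with few counts at 4 h: Hmmr, which encodes a spindle protein that binds Tpx2, rose by 6.09 ± 1.31, Prr11 by 5.49 ± 1.63, Aspm, which encodes a spindle pole protein, by 5.20 ± 1.22 and Stil by 4.96 ± 1.10. Prr11 had 0 counts untreated, and its level at 500 nM and 24 h was at least 43.9-fold higher with IL-2 and at least 29.4-fold higher with IL-15. Tpx2 (NM_001141977, chromosome 2) had the highest counts of the group. It measured 8.36 CPM untreated, 13.03 CPM with IL-2 and 2.30 CPM with IL-15 at 1 nM and 4 h, and 13.5 and 20.6 CPM at 500 nM and 4 h. At 24 h it measured 24.0 CPM with IL-2 and 6.74 CPM with IL-15 at 1 nM, and 109 and 116 CPM at 500 nM. It rose by 2.66 ± 0.57 over time at 500 nM (adjusted p = 0.00479, edgeR), a call lost without IL-15 at 500 nM and 24 h (adjusted p = 0.0901).

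Mitotic kinesins slide, depolymerise or crosslink spindle microtubules. Of these 9 genes 8 rose over time at 500 nM, and Kif18a, which encodes a motor that limits microtubule length, stood at 3.66 ± 1.63 (adjusted p = 0.124, edgeR). Kif20a, which encodes a motor of the central spindle, measured 17.9 CPM untreated, 11.8 to 17.5 CPM in the 4 h libraries, 26.8 CPM with IL-2 and 13.4 CPM with IL-15 at 1 nM and 24 h, and 90.5 and 86.7 CPM at 500 nM and 24 h. It rose by 2.62 ± 0.30 (adjusted p = 0.000104, edgeR). Kif24 rose by 5.18 ± 1.05, Kif15 by 4.21 ± 0.93, the chromokinesin gene Kif4 by 3.49 ± 0.54 and Kif11, which encodes the motor that separates the spindle poles, by 3.33 ± 0.41.

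Cytokinesis needs the central spindle proteins Prc1 and Racgap1, with Ect2 and the scaffold Anln. All 5 genes rose over time at 500 nM, with Anln at 4.29 ± 0.79, Shcbp1, whose product binds the central spindle, at 3.99 ± 1.05 and Prc1 at 3.58 ± 0.45. Racgap1 (NM_012025, chromosome 15) was the member with the highest untreated level in CPM. It measured 105 CPM untreated, 47.1 and 72.6 CPM at 1 nM and 4 h with IL-2 and IL-15, 39.1 and 29.1 CPM at 500 nM and 4 h, 82.7 and 56.6 CPM at 1 nM and 24 h, and 171 and 189 CPM at 500 nM and 24 h. Untreated cells thus held more of it than all treated libraries but the 2 of 500 nM and 24 h. Racgap1 fell by 1.62 ± 0.30 in the 500 nM, 4 h libraries against untreated (adjusted p = 0.00326, edgeR), and at 24 h of that dose its difference from untreated was 0.78 ± 0.32 (adjusted p = 0.100).

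Condensin and topoisomerase II compact and untangle the chromosomes. All 5 genes of this group rose over time at 500 nM, and in all 5 the dose by time interaction passed too. Top2a (NM_011623, chromosome 11) measured 9.65 CPM untreated, 7.51 to 8.15 CPM in the 4 h libraries, 24.7 CPM with IL-2 and 7.32 CPM with IL-15 at 1 nM and 24 h, and 148 and 139 CPM at 500 nM and 24 h. It rose by 4.21 ± 0.40 (adjusted p = 3.27e-05, edgeR). The condensin gene Ncapg rose by 4.25 ± 0.53, the phosphatase anchor gene Cdca2 by 3.75 ± 0.43 and Mki67, which coats mitotic chromosomes and is widely used as a marker of dividing cells, by 3.65 ± 0.41. Mki67 measured 4.62 CPM untreated, 2.91 to 8.37 CPM at 4 h and at 1 nM and 24 h, and 62.1 and 55.1 CPM at 500 nM and 24 h.

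Because these genes moved together, their promoters were read from the RefSeq table of the GRCm38.p6 build, which covers 250 bases before to 50 after each gene start. It gave 54 promoters for 50 of the 60 genes. Genes with several starts enter more than once, and the windows of Prc1 and of Ect2 overlap, so their matches are counted again. The CHR element was searched as TTTGAA or TTCGAA, the CCAAT box as CCAAT and the E2F site as TTTCCCGC, TTTGGCGC or TTTCGCGC, on both strands, and no motif contains another. A CHR match was in 37 of the 54 promoters (68.5%, against 19.2% of all 32851 promoters), a CCAAT match in 40 (74.1% against 37.4%), both in 32 (59.3% against 7.52%) and an E2F match in 4 (7.41% against 1.84%). The CHR matches lay near the gene start, with 23 of them (21 genes) within 50 bases after it and 14 (12 genes) within 50 bases before it. The CCAAT matches lay mostly before the start, with 26 (25 genes) within 50 bases before it and 42 (25 genes) in the longer stretch between 150 and 51 bases before it. Further up lay 15 (11 genes), and 4 (4 genes) lay within 50 bases after the start. Among the 3 genes that did not follow the rest, the Cdc25b and Cenpa promoters held both a CHR and a CCAAT match, and the Pttg1 promoter held none of the motifs searched. Having none was not particular to Pttg1. The promoters of Melk, Mad2l1, Nuf2, Birc5, Plk4, Nusap1 and Ncaph, which rose over time at the high dose, held none either. A match describes these letters and is not a binding site.

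**Figure D4:**
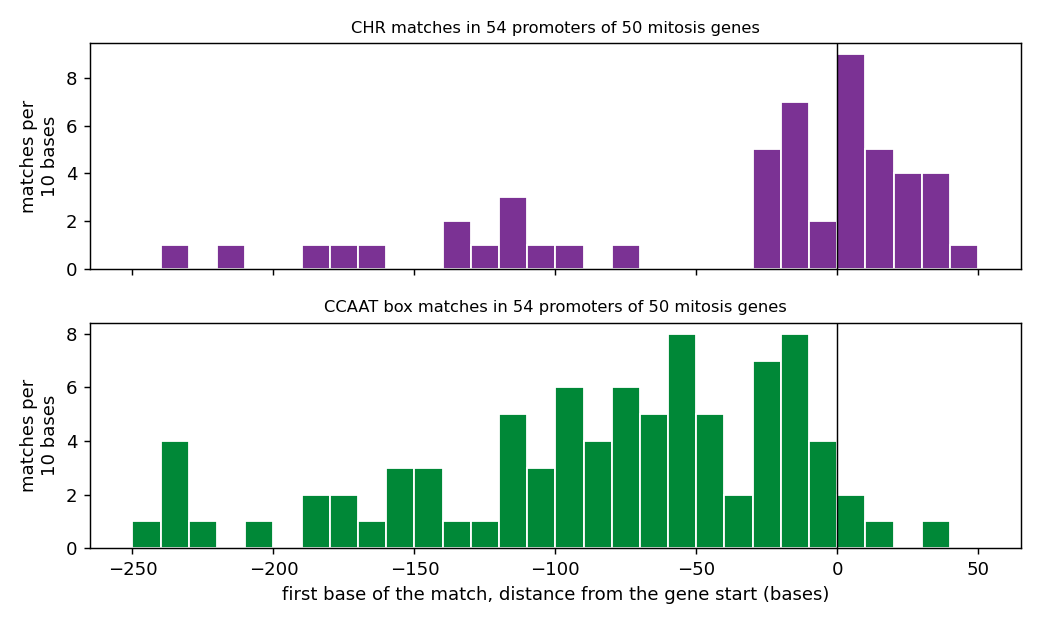
Number of CHR matches (upper panel) and CCAAT matches (lower panel) per 10 bases (vertical axes) by distance of the first base from the gene start (horizontal axis) in 54 promoters of 50 mitosis genes. CHR matches cluster around the start, with 23 (21 genes) in the 50 bases after it, and CCAAT matches lie mostly before it.

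The promoters of the 4 group leaders found in the table are printed from 150 bases before to 30 bases after the gene start on the gene's strand, 180 bases each, to show how the motifs lie in genes that rose together (Cdca3, Racgap1, Top2a) and in one with another pattern (Cenpa). Capitals mark CHR and CCAAT matches on either strand, so that ATTGG is a CCAAT box and TTCAAA a CHR element on the opposite strand.
Cdca3 (chr6:124830026-124830205, plus strand): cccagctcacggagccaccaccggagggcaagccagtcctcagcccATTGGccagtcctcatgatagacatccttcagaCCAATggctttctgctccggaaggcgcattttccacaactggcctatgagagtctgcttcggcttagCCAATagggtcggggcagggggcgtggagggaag
Cenpa (chr5:30666736-30666915, plus strand): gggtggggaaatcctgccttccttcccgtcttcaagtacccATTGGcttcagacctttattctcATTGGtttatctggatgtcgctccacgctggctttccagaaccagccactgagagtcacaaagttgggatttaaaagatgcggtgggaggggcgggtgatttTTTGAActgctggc
Racgap1 (chr15:99651627-99651806, minus strand): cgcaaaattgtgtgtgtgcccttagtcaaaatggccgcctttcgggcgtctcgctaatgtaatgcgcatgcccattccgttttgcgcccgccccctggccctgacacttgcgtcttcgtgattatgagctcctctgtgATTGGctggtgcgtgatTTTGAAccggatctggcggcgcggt
Top2a (chr11:99024160-99024339, minus strand): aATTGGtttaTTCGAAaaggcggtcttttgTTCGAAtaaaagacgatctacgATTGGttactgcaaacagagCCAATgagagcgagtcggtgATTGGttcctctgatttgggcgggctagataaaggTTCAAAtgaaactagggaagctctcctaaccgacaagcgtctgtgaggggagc
Cdca3 holds 3 CCAAT boxes in this stretch, and its CHR match starts just after it, at base 31 of the transcript. Cenpa and Racgap1 each hold a TTTGAA shortly after the start, at bases 17 and 6, with their CCAAT boxes before it. Top2a holds several copies of both motifs, the nearest CHR match 23 bases before the start.

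The second comparison asked what dose did at each time. At 24 h, 54 of the 60 genes were higher at 500 than at 1 nM and 2 were lower, Cdc25b and Pttg1, against 15.6% of all genes called in each direction. The median difference was 2.88. By role, all 4 passenger complex genes, all 9 centrosome and spindle genes, all 5 cytokinesis genes and all 5 chromosome structure genes rose, as did 8 of 9 entry genes, 8 of 10 checkpoint genes, 8 of 9 kinesins and 7 of 9 kinetochore genes. Examples were Melk at 3.63 ± 0.45, Bub1 at 3.43 ± 0.49, Aurkb at 3.21 ± 0.35, Prc1 at 3.37 ± 0.44 and Ncapg at 3.31 ± 0.51. The 4 that were not called were Ttk (2.91 ± 1.05), Cenpk (2.02 ± 1.16), Kif18a (1.504 ± 1.46) and Cenpa. At 4 h no gene of the 60 rose with dose and 2 fell, Cdc25b and Cenpa, against 5.42% and 4.63% of all genes, with a median of -0.04. That count of 2 was 4 when either 1 nM, 24 h library or IL-2 at 500 nM and 4 h was dropped. The myeloid markers fell with the same step, 12 of 13 at 24 h, as did 10 of 12 B cell markers, and their part in the difference was not tested.

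Averaged over both doses, or over both times, fewer genes passed. Between 4 and 24 h, 14 of 60 rose, against 2.69% of all genes, with Nuf2 at 4.05 ± 0.64 and Anln at 3.94 ± 0.62, and none fell. Between 1 and 500 nM 9 rose, against 7.63% of all genes, with Anln at 3.26 ± 0.62 and Tpx2 at 2.38 ± 0.59, and Cdc25b alone fell, by 2.18 ± 0.20, against 8.47%. In these averages the dose by time interaction counts as spread, and with that term in the test 50 and 47 of the 60 genes were called. Calls over all 13479 genes tested went up with it too, from 715 to 3045 for time and from 2170 to 4325 for dose. The count of 14 moved by over 1.5 times when any 1 of the 8 treated libraries was left out, from 0 (IL-2 at 500 nM and 4 h, or IL-15 at 500 nM and 24 h) to 41 (IL-15 at 1 nM and 24 h). The count of 10 for dose went to 2 without either 1 nM, 24 h library or without IL-2 at 500 nM and 24 h, to 3 once the IL-15 library of 500 nM and 24 h was dropped, and to 18 once IL-2 at 500 nM and 4 h was dropped.

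Set against the single untreated library, the 2 libraries of 500 nM and 24 h were higher in 51 of the 60 genes (12.8% of all genes), and none was lower (12.3% of all genes). The median difference was 3.46, also with Ttk and Prr11 at their lower bounds. Examples were Bub1 at 5.80 ± 0.77, Cenph, an inner kinetochore gene, at 5.49 ± 0.80, Melk at 5.19 ± 0.68 and Birc5 at 4.46 ± 0.75. At 1 nM and 24 h 1 of 60 was called, Cdc25b, which rose by 1.20 ± 0.22 (0.861% of all genes rose and 0.786% fell). That count was 13 when IL-15 at 1 nM and 24 h was dropped, and 0 when the IL-2 library of that condition or either 500 nM, 24 h library was dropped. At 1 nM and 4 h Melk (2.28 ± 0.60) and Cenpa rose, against 2.75% of all genes, and none of the 60 fell, against 3.55%. A single gene was called when IL-2 at 1 nM and 4 h or either 500 nM, 24 h library was dropped. At 500 nM and 4 h Cenph rose by 2.94 ± 0.72 and 4 genes fell, Spc24 by 2.28 ± 0.43 with Cdc25b, Incenp and Racgap1, against 7.92% and 8.47% of all genes. The count of 5 was 11 when IL-15 at 1 nM and 24 h was dropped, 9 when the IL-2 library of that condition was dropped and 3 when IL-15 at 500 nM and 4 h was dropped. These comparisons rest on 1 untreated library, in which the myeloid markers were at their highest.

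Taken 1 library at a time and without a test, both cytokines at 500 nM and 24 h gave 56 genes at least 2-fold above untreated and 0 below. Of all genes 17.2% were higher with each cytokine, and 18% with IL-2 and 17.1% with IL-15 were lower. The counts at 4 h were smaller and differed between libraries. With 1 nM IL-2 14 were higher and 7 lower (12.4% and 12.2% of all genes), and with 1 nM IL-15 8 and 9 (10.4% and 11.6%). With 500 nM IL-2 7 were higher and 12 lower (13% and 14.7%), and with 500 nM IL-15 12 and 10 (15.5% and 16.3%). In the deposited RPKM values the median gene of the 60 was at 0.902 untreated and at 8.45 and 8.75 at 500 nM and 24 h with IL-2 and IL-15.

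The third comparison asked whether the 2 cytokines differed. Over all doses and times 0 of 60 genes passed edgeR's test, as did 0% of all genes. The median of IL-15 against IL-2 was -0.25, 0 of the 60 had an unadjusted p under 0.05, and DESeq2 and limma-voom also called 0. At 500 nM 0 of 60 passed (0.00742% of all genes), 1 had an unadjusted p under 0.05, and the other tools called 0. In the single pair of libraries at 500 nM and 24 h none of the 60 differed by 2-fold, against 3.36% of all genes higher and 3% lower with IL-15, and the log2 ratios ran from -0.75 to 0.55. At 4 h the pairs were mixed. With IL-15 5 of 60 were at least 2-fold higher and 13 lower at 1 nM (5.72% and 6.91% of all genes), and 8 were higher and 3 lower at 500 nM (6.46% and 5.11%).

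At 1 nM and 24 h the IL-2 library was above the IL-15 library for 55 of the 60 genes, against 49.2% of all genes, with a median ratio of 2.30. The 95% counting interval of the ratio (exact Clopper-Pearson) lay above 1 for 50 genes, against 36.6% of all genes, and below 1 for 3, and it covers counting error only. By the 2-fold rule for pairs of libraries (at least 20 normalised counts in the higher, no test), 37 genes were lower with IL-15, against 6.94% of all genes. Kif24 alone was higher, against 5.45%. Against the untreated library, IL-2 at 1 nM and 24 h was at least 2-fold higher for 37 genes and lower for 2 (11.2% and 8.9% of all genes), and IL-15 for 7 and 8 (9.67% and 8.95%). Among the 7 libraries outside 500 nM and 24 h, IL-2 at 1 nM and 24 h was the highest for 42 of the 60 genes, against 12.6% of all genes.

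The ratios differed from gene to gene. Cdca8 measured 23.7 CPM with IL-2 and 2.21 CPM with IL-15, a ratio of 10.7 (interval 8.64 to 13.5). Cdc2a measured 37.1 and 6.06 CPM (6.13, 5.36 to 7.04), Birc5 28.5 and 4.93 CPM (5.78, 4.97 to 6.74), and Plk1, which encodes a kinase of mitotic entry, 28.4 and 6.82 CPM (4.16, 3.65 to 4.76). Ccna2 had a ratio of 2.15 (2.00 to 2.31), Incenp of 1.40 (1.30 to 1.52) and Mki67 of 1.15 (0.98 to 1.36). The IL-2 library was not the higher of the pair for 5 genes. The ratio was 0.98 for Cenpa (0.94 to 1.03), 0.86 for Cdc25b (0.84 to 0.89), 0.83 for Pttg1 (0.72 to 0.97), 0.74 for Cenpe (0.52 to 1.03) and 0.23 for Kif24 (0.13 to 0.37).

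**Figure D5:**
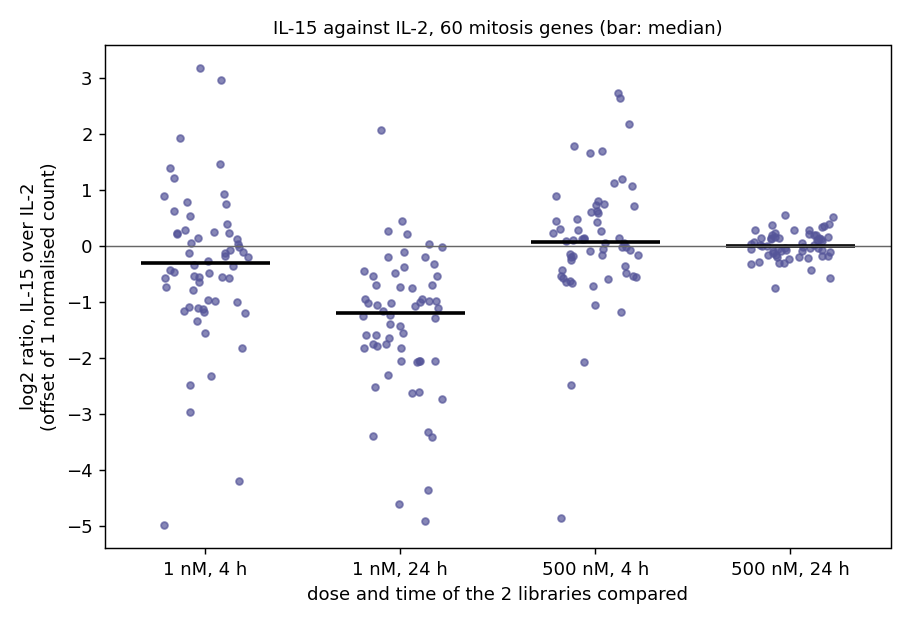
Log2 ratio of the IL-15 to the IL-2 library (vertical axis, offset of 1 normalised count) for the 60 genes at each dose and time (horizontal axis), with the median as a bar. The median is -1.20 at 1 nM and 24 h, where 55 of 60 genes are below 0, and 0.01 at 500 nM and 24 h, where the points lie closest together.

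The test of that pair fitted all 9 libraries, left 1 residual degree of freedom and held no joint term of cytokine, dose and time. Its changes are model estimates and not the ratios of the 2 libraries. In it 7 of the 60 were lower with IL-15, against 0.423% of all genes, and none was higher, against 0.0148%. They were Shcbp1 (-4.74 ± 0.78), Zwilch, a checkpoint gene (-3.45 ± 0.67), Cdca8 (-2.56 ± 0.49), Tpx2 (-2.12 ± 0.32), Birc5 (-1.98 ± 0.39), Plk1 (-1.58 ± 0.35) and Aurkb (-1.27 ± 0.27), with adjusted p from 0.00292 to 0.0470 (edgeR). Shcbp1 had 131 counts with IL-2 and 4 with IL-15 in that pair. At 1 nM and 4 h the IL-2 library was already higher for Shcbp1 (ratio 8.84), Tpx2 (5.66), Zwilch (5.12), Aurkb (1.73) and Birc5 (1.35). It was lower there for Plk1 (0.87) and Cdca8 (0.69). The number called in the 24 h pair was 6 with DESeq2, 2 with median-of-ratios scaling, 2 with transcripts summed, 1 with limma-voom and 0 with edgeR's newer deviances. Over both times at 1 nM Tpx2 alone passed, at -2.14 ± 0.27 (adjusted p = 0.00527, edgeR, 0.0148% of all genes fell). Of the 60, 32 had an unadjusted p under 0.05. The share of all genes under that level was not counted, so the 32 do not set these genes apart. Tpx2 was also the only one with a called cytokine by dose interaction, 2.48 ± 0.37 (adjusted p = 0.0363, edgeR, 0.00742% of all genes rose). The interaction call was lost under 6 of 17 alternatives. When either 1 nM, 4 h library was dropped, 17 or 18 of the 60 were called at 1 nM and 13 for the interaction, and the interaction count was 0 without either 500 nM, 4 h library. Without IL-2 at 1 nM and 4 h, 200 of all genes were called at 1 nM and 161 for the interaction. With all libraries 2 of all genes were called in each. The call of 1 gene at 1 nM became 5 when any library of 500 nM was dropped and 2 without IL-2 at 1 nM and 24 h, and the interaction count became 2 without either 500 nM, 24 h library. At 1 nM and 24 h the summed T cell identity genes came to 6588 CPM with IL-2 and 6666 CPM with IL-15, the B cell markers to 835 and 843 CPM, and the myeloid markers to 755 and 981 CPM. In the same order the CD4 and regulatory T cell markers summed to 52.1 and 38.5 CPM, and the distinct erythroid markers to 34.3 and 29.7 CPM. The dendritic markers summed to 33.7 and 34.6 CPM, and the NK markers to 118 CPM with each cytokine. The IL-2 library was the deepest of the 9, with 48799962 counts against 38229903. The part of these differences in the result was not tested.

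Other genes of the same machinery, from lists that hold none of the 60, moved over time at 500 nM as well, where 13.3% of all genes rose and 12.9% fell. The lists were chosen with earlier results of these data known and give no independent support. Of 26 other kinetochore and checkpoint genes tested 16 rose, among them Cenpm (4.51 ± 0.46) and Cenpn (3.59 ± 0.40), both inner kinetochore genes, and of 24 other spindle and cytokinesis genes 16 rose, among them Ckap2l (4.07 ± 0.38) and the abscission gene Cep55 (3.77 ± 0.65). Of 16 genes of the anaphase-promoting complex and its partners 7 rose. Ube2c, its ubiquitin-conjugating enzyme, rose by 3.30 ± 0.38 and its inhibitor Fbxo5 by 2.99 ± 0.23, while the median of the list was 0.26. Of 17 cohesin and condensin genes 8 rose, with the cohesin acetyltransferase gene Esco2 at 6.34 ± 0.70, and Nipbl, which loads cohesin, fell by 1.09 ± 0.22. Of 10 entry kinases, phosphatases and inhibitors 6 rose, among them Wee1, which holds Cdk1 inactive, at 2.05 ± 0.35.

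Of 23 regulators of cell cycle transcription 11 rose, against 13.3% of all genes, among them E2f7 (5.10 ± 0.97), E2f1 (4.10 ± 0.49), Mybl2 (4.02 ± 0.55) and Foxm1 (2.85 ± 0.38). Mybl2, which encodes B-MYB, measured 4.26 CPM untreated, 13.8 CPM with IL-2 and 3.97 CPM with IL-15 at 1 nM and 24 h, and 64.4 and 67.7 CPM at 500 nM and 24 h. Foxm1 measured 10.1 CPM untreated, 13.2 and 6.89 CPM at 1 nM and 24 h, and 76.6 and 82.3 CPM at 500 nM and 24 h. Of 32 S phase genes 31 rose, with the ribonucleotide reductase gene Rrm2 at 5.25 ± 0.47. In the test of the 1 nM, 24 h pair 3 of the 32 were lower with IL-15, against 0.423% of all genes, Mcm10 and Uhrf1 among them beside Rrm2 (-1.53 ± 0.28). With edgeR's newer deviances that test, on 1 residual degree of freedom, called 0 of all genes, against 59 here. At 1 nM these 7 lists together gave 1 rise, Anapc11, a subunit of the anaphase-promoting complex, and 1 fall, the kinetochore gene Cenpt. Over the same time at 500 nM the markers of other cells moved down, with 8 of 13 myeloid, 3 of 7 distinct erythroid and 4 of 12 B cell markers falling. At 1 nM 6 of 13 myeloid markers rose. Their part in the results above was not tested.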

How the data were processed

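RNA was measured by sequencing in 9 libraries of mouse splenic CD8+ T cells, 1 untreated and 8 treated, each from RNA of 3 pooled samples per the labels. Per the submitters' processing notes, base calling used CASAVA 1.8 and alignment Bowtie 0.12.4 to mm8. How reads were counted, with which strand setting and with what rule for multi-mapping reads, is not given in the sources used here. Raw read counts were deposited for 24373 transcripts of 20418 symbols. RPKM values stand beside them per the file headers; the values show that the authors divided each count by its exon length and by a single library total. The tests used the counts.

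Each symbol was represented by its transcript of highest mean count (9 of the 60 genes have more than 1, and none shares all its counts with another symbol). The filter (filterByExpr, minimum count 10, total 15, each library a group) kept 13479 genes. All 60 pass it in at least 1 library outside 500 nM and 24 h, and 54 in the untreated library. edgeR 4.0.16 in R 4.3.3 fitted all 9 libraries with trimmed-mean scaling and legacy deviances. Cytokine, dose and time with an untreated term left 4 residual degrees of freedom, the added dose by time term 3, the added cytokine by dose term 2 and all 3 interactions 1. CPM were computed from the scaled counts. Single pairs of libraries got no test (rule: 20 normalised counts in the higher and a difference of at least 2-fold, offset 1). A count of 0 was given the limit of 3 counts, and PCR reads are not independent molecules.

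Alternatives were DESeq2 1.42.0, limma-voom 3.58.1, median-of-ratios scaling, no filter, a mean of 50 counts, summed transcripts, the dose by time term added or dropped, each library left out, and, added after the data were seen, edgeR's newer deviances. The 60 genes and all lists were chosen with earlier results of these data known. Any of the 60 may be named. Values in every library are given for the gene with the highest mean count of each role, and for genes that went against the rest. Mybl2 and Foxm1 were chosen after their values were seen. Other examples are among the 4 largest called changes of a role or list, or were chosen after their values were seen. Promoters are those of RefSeq (GRCm38.p6), with Cdc2a matched as Cdk1; the deposited files give mm8 chromosomes, and no coordinates were moved between builds.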

Additional observations from a re-analysis of the deposited data

Results flagged for a closer look

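These are results in which a test showed that an effect differed between groups. For 36 of the 60 mitosis genes the change from 4 to 24 h was larger at 500 nM than at 1 nM by the dose by time interaction (edgeR). Of all genes tested 4.06% passed in that direction, and leaving out 1 library at a time gave 20 to 44 of the 60. Among the genes with the highest mean count in each role, this difference was 3.20 ± 0.38 for Ccna2, 3.21 ± 0.49 for Cdca3, 1.48 ± 0.28 for Cenpa, 2.67 ± 0.46 for Aurkb, 2.33 ± 0.41 for Kif20a, 2.19 ± 0.37 for Racgap1 and 3.29 ± 0.52 for Top2a (log2, SE). Adjusted p ran from 0.00107 for Ccna2 to 0.00814 for Cenpa, whose call was lost without IL-2 at 500 nM and 24 h (adjusted p = 0.0593, edgeR). For 1 gene, Tpx2, the difference between IL-15 and IL-2 changed with dose, by 2.48 ± 0.37 in the cytokine by dose interaction. The Tpx2 call held under 11 of 17 alternatives. Limma-voom, edgeR's newer deviances and leaving out either 500 nM, 4 h library were among those that lost it.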

How the results depend on the processing

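Each condition has 1 library, so leaving 1 out assumes that its partner varies like the rest. No paired analysis was possible because no 2 libraries of a condition exist and the labels carry no replicate numbers. Of the 60 genes, the count called over time at 500 nM (57) stayed between 41 and 60 under all alternatives, that for dose at 24 h (56) between 42 and 57, and that for 500 nM and 24 h against untreated (51) between 38 and 54. The cytokine comparison (IL-15 against IL-2) gave 0 over all libraries and at 500 nM under every alternative run.

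Calls over all genes moved too, for time from 715 to 2126 with DESeq2 and to 3045 with the dose by time term added. Among the 60, other counts moved by more than 1.5 times, and the cause was not tested. With DESeq2 the count was 43 for time, 29 for dose, 7 for time at 1 nM, 5 for dose at 4 h, 4 for 1 nM and 4 h against untreated, 5 for 1 nM and 24 h against untreated, 4 for the cytokines at 1 nM and 2 for the cytokine by dose interaction. Of all 13479 genes tested DESeq2 called, in the same order, 2126, 3495, 827, 1844, 1359, 728, 14 and 5. The main test called 715, 2170, 390, 1355, 850, 222, 2 and 2. With limma-voom the count among the 60 was, in the same order, 36, 43 and 0 for the first 3, then 1 for 1 nM and 4 h and 3 for 500 nM and 4 h against untreated, 0 for the cytokines at 1 nM, 0 for the cytokine by dose interaction and 1 for the IL-15 and IL-2 pair (1 nM, 24 h). Of all genes limma-voom called, in the order just given, 1175, 2801, 320, 751, 2172, 0, 0 and 35. The main test called 2209 for 500 nM and 4 h against untreated and 59 for the pair. Among the 60, adding the dose by time term gave 50 for time and 47 for dose, and dropping it gave 0 for the cytokines at 1 nM and 0 for the cytokine by dose interaction. Of all genes 3045 and 4325 were called with the term added, and 0 and 0 with it dropped. The newer deviances gave, among the 60, 31 for time, 26 for dose, 1 for time at 1 nM, 1 for 1 nM and 4 h against untreated, and 0 for the cytokines at 1 nM, the cytokine by dose interaction and the pair. Of all genes they called 1091, 2689, 459 and 878, and 0 in the others named. Among the 60, summed transcripts gave 1 for time at 1 nM, 1 for 1 nM and 4 h against untreated and 2 for the pair, median-of-ratios scaling gave 2 for the pair, no filter gave 2 for the cytokines at 1 nM, and a mean of 50 counts gave 1 for time at 1 nM and 0 for the cytokine by dose interaction. Of all genes tested in each, summed transcripts called 310, 708 and 22 and median-of-ratios scaling 19. No filter called 4, and a mean of 50 counts 389 and 0.

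Leaving out each library in turn gave 0 to 41 for time, 2 to 18 for dose, 20 to 44 for the dose by time interaction, 0 to 18 for time at 1 nM, 2 to 4 for dose at 4 h, 1 to 3 for 1 nM and 4 h, 0 to 13 for 1 nM and 24 h and 3 to 11 for 500 nM and 4 h against untreated, 1 to 18 for the cytokines at 1 nM and 0 to 13 for the cytokine by dose interaction. That pair could be refitted only without the untreated library, which gave 7. The highest count for time, time at 1 nM and 1 nM and 24 h against untreated came without IL-15 at 1 nM and 24 h. Without IL-2 at 1 nM and 24 h Cdca8 turned to -2.35 over time at 1 nM. Calls over all genes moved as well. For time they went from 715 to 214 without IL-2 at 1 nM and 4 h, and to 117 without IL-2 at 500 nM and 4 h.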
